A study of Mus musculus with 6 samples.

Results

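Sfrp1, Sfrp2, Sfrp4, Sfrp5, Frzb, Wif1 and Apcdd1, 7 genes for Wnt inhibitors that act outside the cell or at its surface, were followed in the ventral midbrain of the mouse embryo. Their members were all probe sets that the array annotation gives to exactly 1 of these symbols, 18 of the 45101 probe sets on the array. A probe set is a group of short probes that together measure 1 transcript region. The 18 were 5 for Sfrp1, 6 for Apcdd1, 2 each for Sfrp5 and Frzb, and 1 each for Sfrp2, Sfrp4 and Wif1. The probe sets were taken by gene symbol, and the list of genes was chosen with earlier results of these data known. Several rest on the same sequence record in the annotation, namely 3 of the Sfrp1, 3 of the Apcdd1 and both Frzb probe sets, so the probe sets of a gene are not independent replicates.

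The tissue came from C57BL/6 embryos of mixed sex at embryonic day 10.5, with no allele or treatment named for either group. The floor plate group held 3 samples of the midbrain floor plate, the ventral midline strip that secretes Sonic hedgehog. The ventral lateral group held 3 samples of the neighbouring ventral lateral midbrain, dissected without overlap with the floor plate. Each sample pooled tissue of 6 embryos, and 5 ng of its total RNA was amplified, biotin-labelled and hybridised to an Affymetrix array. The labels do not say whether a pool of one region shared embryos with a pool of the other, so the p-values here cover no more than the spread among 6 samples.

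Wnt proteins bind Frizzled receptors and Lrp5 or Lrp6 on the receiving cell, and in the canonical branch this stabilises beta-catenin, which acts on target genes with Tcf/Lef factors. The secreted frizzled-related proteins carry a cysteine-rich domain like that of the Frizzled receptors and can bind Wnt proteins before these reach a receptor. Sfrp1, Sfrp2 and Sfrp5 form one subgroup of this family, while Frzb, also known as Sfrp3, and Sfrp4 form another. Wif1 binds Wnt proteins through a different domain, and Apcdd1 is a membrane glycoprotein that binds Wnt and Lrp5 and is itself a Wnt target gene in several tissues. In the ventral midbrain, Wnt signals take part in the formation of dopaminergic neurons from floor plate progenitors.

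The deposited values are centred, so that the median of each probe set over the 6 arrays is 0. They show how samples differ from each other and not how strongly a gene is expressed, and levels of different genes cannot be compared. Neither the scale nor its direction is given in the labels, and log2 values that increase with the amount of RNA were assumed. Centring also makes the innermost values of the groups mirror each other wherever the groups do not overlap. The precision is limited by the number of arrays. In tissue samples like these, fewer cells of a type and less RNA per cell cannot be told apart.

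The region labels were checked first on marker genes. Of 8 floor plate genes 7 had a probe set that was higher in floor plate samples (limma, Benjamini-Hochberg adjusted p under 0.05). The forkhead factor gene Foxa2 gave a log2 difference of 1.76 and an adjusted p of 0.0132 (0.0575 without floor plate replicate 1), and Shh missed the threshold on both of its probe sets (log2 differences of 1.76 and 0.16, adjusted p of 0.0734 and 0.56). Each of 7 ventral lateral genes had a lower probe set, among them Gad1, which encodes a GABA-synthesising enzyme (-4.56). The mean of the floor plate genes was -0.92 in ventral lateral replicate 2, against -1.68 in replicate 1 and -2.22 in replicate 3, and its floor plate values lay between 0.97 and 1.09. Ventral lateral replicate 2 therefore lay nearest to the floor plate samples on these genes.

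Among the inhibitors, Sfrp1 was lower in the floor plate on every one of its probe sets, by 2.34-fold to 4.12-fold. Sfrp2 and Sfrp4 were lower by smaller amounts, 1.63-fold and 1.45-fold. Apcdd1 was 2.15-fold higher in the floor plate on 1 of its 6 probe sets. None of the 5 probe sets of Sfrp5, Frzb and Wif1 passed the limma test, and 1 of them, that of Wif1, had an unadjusted p under 0.05. In all, 7 of the 18 probe sets were lower and 1 was higher at an adjusted p under 0.05, where over all 45037 probe sets tested 2.01% were lower and 2.70% higher. Counted as genes with at least 1 such probe set, 3 of 7 were lower and 1 was higher, against 3.25% and 4.58% of the 18193 named genes. The median log2 difference of the 18 probe sets was -0.22, beside -0.0040 over all probe sets.

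**Figure D1:**
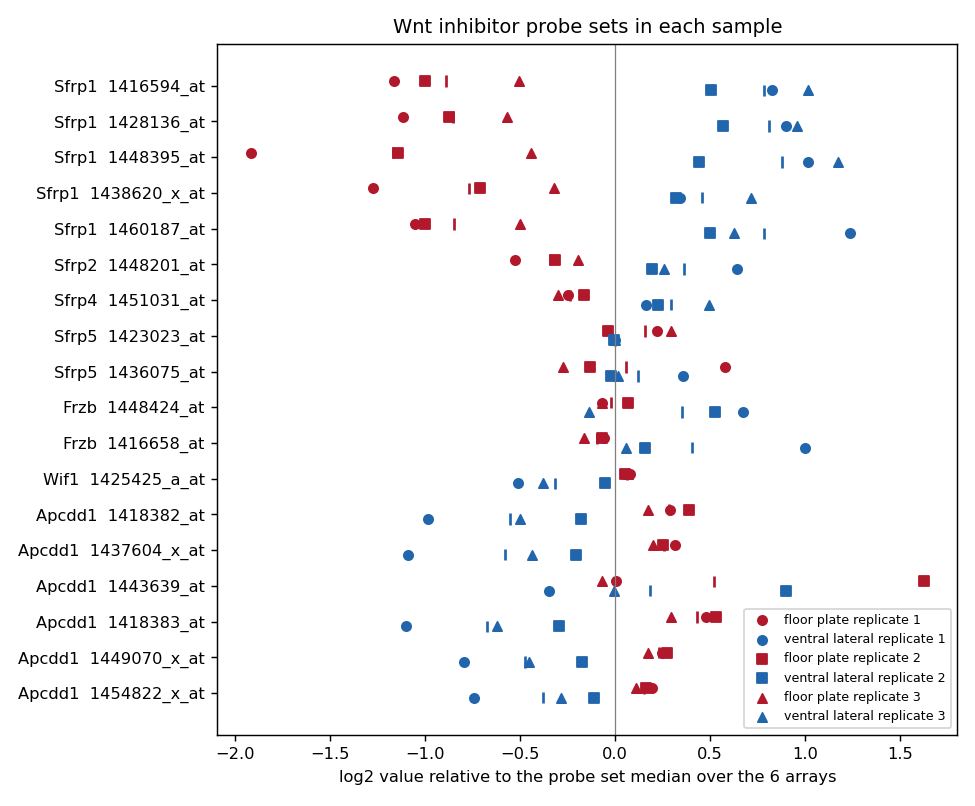
Values of the 18 probe sets in each sample, as log2 relative to the probe set's median over the 6 arrays, with floor plate in red, ventral lateral in blue, symbols for the replicates and short vertical bars for group means (n = 3 each). The groups of Sfrp1 lie apart on all 5 probe sets, while those of both Sfrp5 probe sets overlap.

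Sfrp1, a Wnt-binding protein of the first subgroup, showed the largest separation of the family. On probe set 1428136_at, the one with the lowest p, the floor plate values were -1.12, -0.87 and -0.57 in replicates 1, 2 and 3, and the ventral lateral values were 0.90, 0.57 and 0.96. The groups did not overlap, and the gap between them was wider than the spread within either. The log2 difference was -1.66 (SE 0.17), between a floor plate mean of -0.85 ± 0.28 (SD, n = 3) and a ventral lateral mean of 0.81 ± 0.21 (SD, n = 3), with an adjusted p of 0.00184.

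The other Sfrp1 probe sets ran the same way. Probe set 1416594_at differed by -1.67 (adjusted p = 0.0035) and 1460187_at by -1.63 (adjusted p = 0.00664). The difference was largest on 1448395_at, at -2.04 (SE 0.36, adjusted p = 0.0189), where the floor plate values spread most, at -1.91, -1.14 and -0.44. It was smallest on 1438620_x_at, at -1.23 (adjusted p = 0.0279), a probe set whose suffix marks probes that may also bind other transcripts. Every pair of the 5 probe sets had a Pearson correlation of 0.900 to 0.997 over the 6 arrays, which share the same RNA and the regional difference.

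Among floor plate samples, replicate 1 was the lowest and replicate 3 the highest on all 5 Sfrp1 probe sets, with values of -1.91 to -1.05 and -0.57 to -0.32. Ventral lateral replicate 2 was the lowest of its group on all 5, at 0.32 to 0.57. Of 7 neural progenitor markers 1 passed as lower in floor plate, Sox1, at -2.83 on probe set 1438729_at. Its other probe set differed by -0.29 and missed the limma threshold (adjusted p = 0.307). The median log2 difference of the progenitor list was 0.02, and the part of progenitor content in the Sfrp1 values was not tested.

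Leaving out each of the 6 samples in turn kept the sign of Sfrp1 on every probe set. Probe sets 1416594_at, 1428136_at and 1460187_at stayed under the threshold in each of these fits, with a highest adjusted p of 0.0385. Probe set 1448395_at missed it in 3 of them, with an adjusted p of 0.0545 when floor plate replicate 2 was left out, 0.0812 when ventral lateral replicate 1 was, and 0.0727 when ventral lateral replicate 3 was. Probe set 1438620_x_at passed only without floor plate replicate 3, and its adjusted p was 0.0501 to 0.0954 in the other 5 fits.

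**Figure D2:**
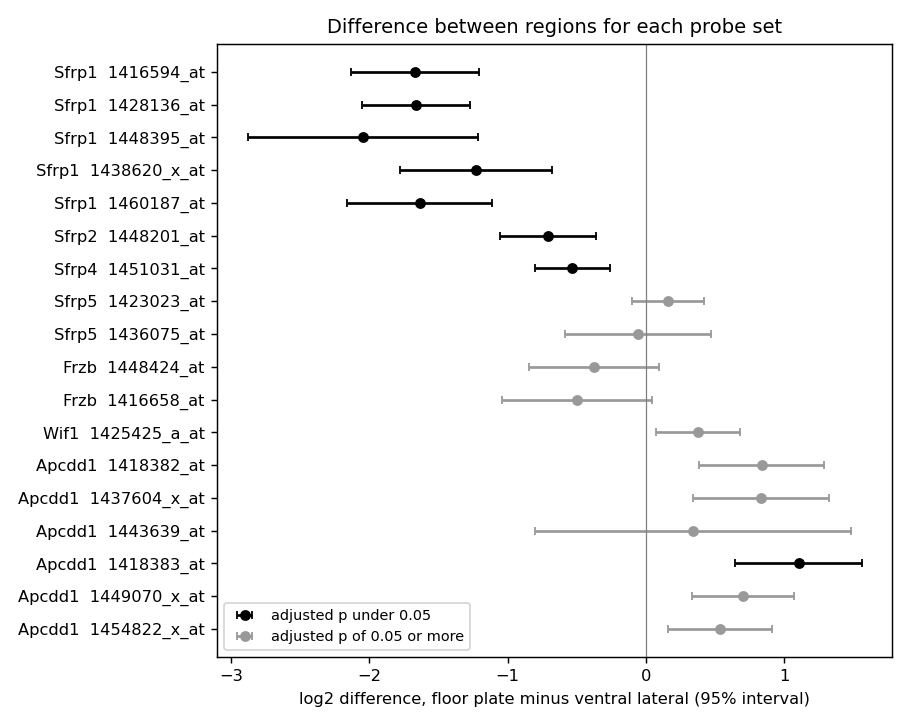
Log2 difference between floor plate and ventral lateral samples for each of the 18 probe sets, with its 95% interval from limma, in black where the adjusted p is under 0.05 and in grey otherwise. The 5 Sfrp1 intervals lie wholly below 0, from -2.88 to -0.68, and 5 of the 6 Apcdd1 intervals lie wholly above it.

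Sfrp2, a Wnt-binding protein of the same subgroup as Sfrp1, was lower in the floor plate by less. Its floor plate values were -0.52, -0.31 and -0.19, and its ventral lateral values were 0.64, 0.19 and 0.26. The groups did not overlap, with floor plate replicate 1 lowest and ventral lateral replicate 1 highest. Its log2 difference was -0.71 (SE 0.15, 95% interval -1.06 to -0.36), with an adjusted p of 0.0408. That call was lost without any 1 of the 6 samples (adjusted p of 0.0554 to 0.128), while the difference stayed between -0.79 and -0.57.

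Sfrp5, the remaining member of that subgroup, had overlapping groups on both probe sets. On 1436075_at the floor plate values were 0.58, -0.13 and -0.27 and the ventral lateral values 0.36, -0.02 and 0.02, with replicate 1 the highest in both regions. Between the regions it differed by -0.06, with a 95% interval of -0.59 to 0.47. On 1423023_at the difference was 0.16, with an interval of -0.10 to 0.42, and the ventral lateral values lay within 0.01 of 0. The 2 probe sets were nearly unrelated over the 6 arrays (Pearson r = 0.04). A difference of the size seen for Sfrp1 lay outside both intervals. Centred values do not show whether these probe sets detect Sfrp5 RNA here, so the intervals cover the signal and may not bound the RNA.

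Sfrp4, of the second subgroup, was lower in the floor plate. Its floor plate values were -0.24, -0.16 and -0.30, and its ventral lateral values 0.16, 0.23 and 0.50, so the groups did not overlap. This gave a log2 difference of -0.53 (SE 0.12, 95% interval -0.80 to -0.26), with an adjusted p of 0.0456. This call too was lost without any 1 of the 6 samples (adjusted p of 0.071 to 0.135), with differences of -0.60 to -0.43, and after quantile normalization (adjusted p = 0.0506).

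Frzb, its relative, had lower floor plate means on both probe sets but missed the threshold. On 1416658_at the floor plate values were -0.06, -0.07 and -0.16, and those of ventral lateral replicates 1, 2 and 3 were 0.998, 0.16 and 0.06. The groups did not overlap there, yet ventral lateral replicate 1 stood far above the other 5 samples. The log2 difference was -0.50 (95% interval -1.04 to 0.04, adjusted p = 0.347), and it was -0.20 without that sample.

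On the second Frzb probe set, 1448424_at, the ventral lateral values were 0.67, 0.52 and -0.14, and the third was the lowest of all 6 samples. It differed by -0.38 (adjusted p = 0.427). Without ventral lateral replicate 3 it was -0.62 and passed (adjusted p = 0.0449). The mean of 7 neuron markers was 0.36, 0.18 and -0.05 in ventral lateral replicates 1, 2 and 3, and -0.30 to -0.06 in floor plate samples. In ventral lateral replicate 3 the markers differed among themselves. Elavl4 probe sets were at -0.60 to -0.27 there, and those of Nefl and Stmn2 at 0.11 to 0.15. Of these markers 2 of 7 passed as lower in floor plate, Nefl and Stmn2, each in only 1 of the 6 fits that left out a sample. Over the list 9 of 19 probe sets were lower at an unadjusted p under 0.05, and the part of neuron content in the Frzb values was not tested.

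**Figure D3:**
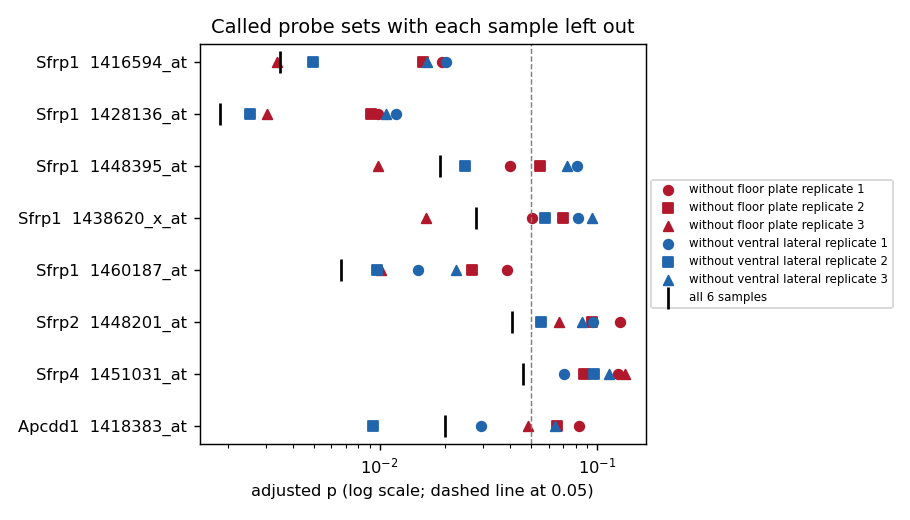
Adjusted p of the 8 probe sets that passed, on a log axis, with all 6 samples (black bar) and with each sample left out (red for floor plate, blue for ventral lateral, symbols for the replicates). The 3 Sfrp1 probe sets 1416594_at, 1428136_at and 1460187_at lie left of the dashed line at 0.05 in every fit, while Sfrp2 and Sfrp4 lie right of it whenever a sample is missing.

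Wif1, a secreted Wnt-binding protein that is not of the frizzled-related family, had slightly higher floor plate values. These were 0.08, 0.05 and 0.07, against -0.51, -0.05 and -0.38 in ventral lateral samples. The groups did not overlap, and the floor plate samples were tightly grouped while ventral lateral replicate 2 lay just below them. On the log2 scale Wif1 differed by 0.38 (SE 0.13, 95% interval 0.08 to 0.68), and it did not pass after adjustment (adjusted p = 0.188).

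Apcdd1 was higher in the floor plate on probe set 1418383_at, with floor plate values of 0.48, 0.53 and 0.29 and ventral lateral values of -1.10, -0.29 and -0.62. The log2 difference was 1.10 (SE 0.20, 95% interval 0.65 to 1.56), with an adjusted p of 0.0201. The groups did not overlap, and ventral lateral replicate 1 was the lowest sample. The adjusted p was 0.0832, 0.0654 and 0.0644 when floor plate replicate 1, floor plate replicate 2 and ventral lateral replicate 3 were left out in turn, and the call was then lost, while the difference stayed between 0.89 and 1.29.

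Of the other Apcdd1 probe sets, 1418382_at, 1437604_x_at, 1449070_x_at and 1454822_x_at gave log2 differences of 0.84, 0.83, 0.70 and 0.53 and missed the threshold, with adjusted p of 0.058, 0.0773, 0.0505 and 0.134. With 1418383_at they made up 5 probe sets whose floor plate values all lay above their ventral lateral values, and their correlations with each other were 0.973 to 0.999 over the 6 arrays. Without ventral lateral replicate 2, the first 3 of these 4 passed, at 1.02, 1.02 and 0.85 (adjusted p of 0.0234, 0.0398 and 0.0229). Over all 18 probe sets 6 had floor plate values wholly above and 8 wholly below the ventral lateral values, where over all probe sets tested these shares were 11.5% and 11.0%.

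On these 5 probe sets ventral lateral replicate 1 was the lowest of its group (-1.10 to -0.74) and replicate 2 the highest (-0.29 to -0.11). Replicate 2 was also the ventral lateral sample nearest to floor plate on the mean of the floor plate markers, and the part of this in the Apcdd1 values was not tested. With replicate 2 left out the difference on 1418383_at was 1.29 (adjusted p = 0.00936), and on Sfrp1 probe set 1428136_at it was -1.78 (adjusted p = 0.00254).

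The sixth Apcdd1 probe set, 1443639_at, followed another pattern. Floor plate samples were at 0.01, 1.62 and -0.07 and ventral lateral samples at -0.34, 0.90 and -0.01, so replicate 2 was by far the highest in both regions and the groups overlapped. Its log2 difference was 0.34 (95% interval -0.80 to 1.48), and it turned to -0.21 without floor plate replicate 2. Its correlation with the other 5 probe sets was 0.46 to 0.55.

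The mean of 8 head mesenchyme markers was highest in the same samples, at 0.45 in floor plate replicate 2 and 0.36 in ventral lateral replicate 2. It lay between -0.42 and -0.07 in the other 4 samples. Of the 8 markers 1 had a probe set that passed, Twist1, which was higher in floor plate (2.11). The part of mesenchyme in the values of 1443639_at was not tested. Averaged by region, the list stood at 0.01 in floor plate and at -0.06 beside it. The means of blood, endothelial and neural crest markers were also highest in replicate 2 of each region. There they were 0.21, 0.11 and 0.06 in floor plate and 0.24, 0.17 and 0.08 in ventral lateral. The mean of microglia markers was lowest in floor plate replicate 2, at -0.22, and was 0.07 in ventral lateral replicate 2. The part of these tissues in 1443639_at was not tested either.

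**Figure D4:**
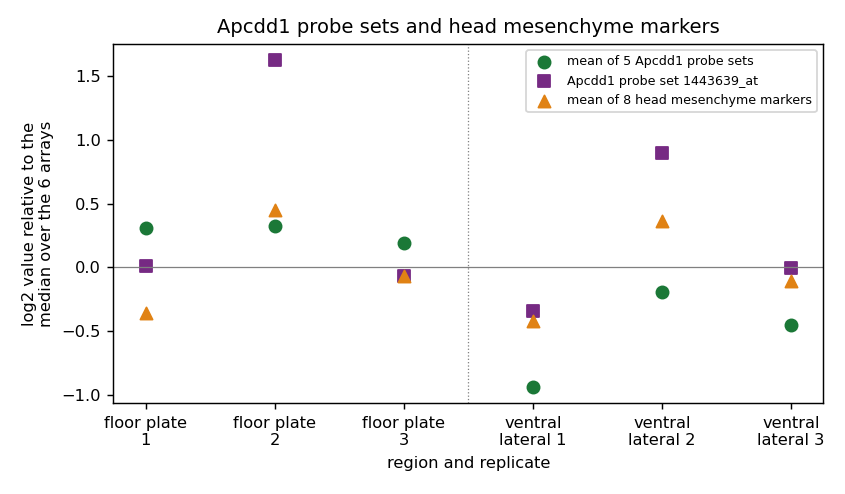
Log2 values relative to the median over the 6 arrays in each sample, for the mean of 5 Apcdd1 probe sets (circles), for Apcdd1 probe set 1443639_at (squares) and for the mean of 8 head mesenchyme markers (triangles). The 5 probe sets average 0.19 to 0.32 on the floor plate arrays and -0.94 to -0.19 on the others, while 1443639_at stands at 1.62 and 0.90 in the second replicates.

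Averaged over all probe sets of a gene, Sfrp1 differed by -1.65 (SE 0.21, adjusted p = 0.00315), Sfrp2 by -0.71 (adjusted p = 0.022) and Sfrp4 by -0.53 (adjusted p = 0.0218), with adjustment over genes. Apcdd1 differed by 0.73 and missed the threshold (adjusted p = 0.0805). When each gene was instead represented by its most variable probe set, Apcdd1 was represented by 1443639_at and gave 0.34 (adjusted p = 0.772).

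Few markers of other tissues that the dissected pieces could hold passed the test. None of the blood (4 genes measured), microglia (3) or neural crest (3) markers had a probe set past the limma threshold. At an unadjusted p under 0.05 there were 0 of 8 blood, 2 of 6 microglia and 0 of 6 neural crest probe sets. Of 5 endothelial markers 1 was lower, the tight junction gene Cldn5 (-0.68), and it passed in 2 of the 6 fits that left out a sample. By array, the mean of the endothelial markers ran from -0.31 to 0.11 across floor plate arrays and from 0.01 to 0.17 across the ventral lateral ones.

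The rest of the Wnt pathway was described on fixed lists. Of 19 Wnt ligand genes 5 had a higher and 1 a lower probe set. Wnt9a (2.70, adjusted p = 0.0012) and Wnt5b (1.68, adjusted p = 0.000591) were the highest among the ligands that passed the limma test. Wnt7a was lower (-2.31, adjusted p = 0.000501), and these 3 passed without any 1 of the samples. Each of these Wnt7a and Wnt9a values rests on 1 probe set. The remaining Wnt7a probe sets differed by 0.25 and 0.11 (adjusted p = 0.243 and 0.818), and the other Wnt9a probe set by 0.08 (adjusted p = 0.831). Wnt1, named after its values were seen, differed by 3.40 and did not pass (adjusted p = 0.119), with ventral lateral values of -5.10, -0.91 and -1.20. The median log2 difference of the ligand probe sets was 0.22.

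Of 15 receptor genes, Fzd6 had a higher probe set (1.01, adjusted p = 0.0266) and Fzd8 a lower one (-1.10, adjusted p = 0.00404). Fzd6 passed in 2 of the 6 fits that left out a sample, those without ventral lateral replicate 1 or 2, while Fzd8 passed in all 6. Lrp5, the co-receptor that Apcdd1 binds, differed by 0.16 (adjusted p = 0.699). The median of the receptor probe sets was -0.03.

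Among 21 other Wnt regulators measured, 3 had a higher and 1 a lower probe set, with a median of 0.08. Rspo2, which enhances Wnt signals, and Dkk2, a ligand of Lrp co-receptors, differed by 4.66 (adjusted p = 0.0129) and 4.32 (adjusted p = 0.0105). Both lost the call without floor plate replicate 1 (adjusted p of 0.0595 for Rspo2 and 0.0569 for Dkk2), and Rspo2 also without ventral lateral replicate 3 (0.0548). A second Rspo2 probe set differed by -0.04. Lgr4, a receptor for R-spondins, was lower (-1.42, adjusted p = 0.00989). Its other probe set differed by -0.31 and missed the limma threshold (adjusted p = 0.238).

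Of 11 measured factors and targets of the canonical branch, 1 was higher and 2 were lower, with a median of 0.02. The feedback target Axin2 was higher on both of its called probe sets (0.92 and 0.68, adjusted p of 0.035 and 0.0254), though each passed in at most 2 of the 6 fits that left out a sample. The factor gene Tcf7l2 was lower on 4 probe sets (-2.15 to -1.80), and 1 of them, 1429428_at, passed whichever sample was left out. Lower too was the cell cycle gene Ccnd1 on probe set 1417419_at (-0.85, adjusted p = 0.0171). Its other probe sets differed by -0.63 and -0.39 and missed the limma threshold (adjusted p = 0.15 and 0.105). Leaving out a floor plate sample, whichever it was, ended the call of Ccnd1.

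The frizzled-type cysteine-rich domain also occurs in other proteins, and 2 of 5 such genes measured had a higher probe set. Corin, a membrane serine protease, differed by 6.36 (adjusted p = 0.00202), and Col18a1, a basement membrane collagen, by 0.84 (adjusted p = 0.0228). None was lower, by limma or at an unadjusted p under 0.05, and the median was 0.34. Col18a1 missed the threshold without floor plate replicate 1 or 2. Thus the genes for this domain lay on both sides, with Sfrp1 and Fzd8 lower and Corin and Fzd6 higher in the floor plate.

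Genes with the most similar profile over the 6 arrays were found for the probe set of lowest p of each gene that passed, as a description. For Sfrp1 these were Gm5802, the Hedgehog receptor gene Ptch1 and Tbkbp1, with Pearson correlations of 0.996 to 0.998. For Sfrp2 they were Gpx1, Ddx42 and Gnb3, and for Sfrp4 Armcx4, Ethe1 and the laminin gene Lama1. For Apcdd1 they were Ttc28, Dph6 and the LIM homeobox gene Lmx1b (0.99), a dopaminergic progenitor factor with a difference of 3.72. Of these neighbours Lmx1b alone passed the limma test (adjusted p = 0.00663), while Ptch1 differed by -0.30 (adjusted p = 0.117) and Gpx1 by -0.17 (adjusted p = 0.408). A correlation over 6 arrays in 2 groups follows the group difference, and 403 probe sets lay above 0.95 for Sfrp1 and 405 for Apcdd1.

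Promoter windows of 300 bases from RefSeq (build GRCm38.p6) were searched for 4 of the 7 genes, Sfrp2, Sfrp5, Frzb and Wif1. They run from 250 bases before to 50 after the start. None of them holds CTTTGAA, a Tcf/Lef motif, GACCACCCA, a Gli motif, or TGTTTAC, a Foxa motif, on either strand. Of all 32851 windows 5.14%, 0.253% and 3.65% hold them. Absence of a match says only that these letters are not in the window. Sfrp1, Sfrp4 and Apcdd1 were not searched, so nothing can be said on their promoters. The search of members left out a chromosome that the count over all windows kept.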

How the data were processed

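Per the submitters' processing notes the authors used RMA, and the deposited values are log2 values (base assumed) centred per probe set: 100% had a median within 1e-05 of 0 across arrays. Neither the centring step nor a genome build is recorded in the labels. Over all probe sets, array medians were -0.0030 to 0.0045. Probe sets were named from GEO's platform annotation (34945 with 1 symbol, 932 with several, 9160 with none), and all 18 members matched a RefSeq gene identifier.

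After leaving out 64 control probe sets, limma 3.58.1 (R 4.3.3; lmFit, then eBayes) was run on 45037, region as the only term, with Benjamini-Hochberg adjustment over all of them and a threshold of 0.05. The fit was tested on simulated data. A dim-probe filter could not be made on centred values. Python 3.11.15, pandas 2.3.3 and matplotlib 3.10.9 were used beside it.

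The members, lists and tests were chosen with earlier results of these data known. Genes named outside the members were the region markers, up to 2 per pathway list and direction with the largest difference past the threshold, the 3 with the most similar profile, and genes a member binds or resembles. Genes of marker lists that passed were named as well, after their values were seen. Alternatives were gene summaries, probe set filters, 2 scalings, robust eBayes, array weights, a replicate block, other thresholds and leaving out each sample.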

Additional observations from a re-analysis of the deposited data

How the results depend on the processing

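With all samples, 1218 probe sets of the array were higher and 903 lower in floor plate, and 1 and 7 of the 18 inhibitor probe sets, which belonged to 1 higher and 3 lower genes. At an adjusted p under 0.01 these counts were 584 and 373 over the array, 0 and 3 inhibitor probe sets, and 0 and 1 genes. At an adjusted p under 0.1 there were 1733 higher and 1419 lower probe sets over the array, and 4 higher and 7 lower inhibitor probe sets. Asking also for a 2-fold difference left 615 and 408 over the array, with 1 higher inhibitor gene, Apcdd1, and 1 lower one, Sfrp1. Quantile normalization gave 1295 higher and 964 lower probe sets over the array. Among the inhibitors it gave 4 higher probe sets, all of Apcdd1, and 6 lower ones in 2 genes, as Sfrp4 had an adjusted p of 0.0506. A single probe set or the mean of the probe sets per gene gave 0 higher genes. The cause was not tested in any of these.

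Leaving out 1 sample gave 753 to 991 higher and 510 to 743 lower probe sets over the array, 0 to 4 higher and 3 to 5 lower inhibitor probe sets, and 0 to 1 higher and 1 to 2 lower inhibitor genes. These fits have fewer samples. Replicate numbers occur in both regions, and the labels do not say whether same-numbered samples came from the same embryos. The deviations of same-numbered samples had correlations of 0.0096, 0.12 and 0.11, and those of unlike numbers -0.15 to 0.027. These correlations do not settle whether the numbers pair samples. As no label states a pairing, the main fit left the number out, and a replicate block was run as an alternative. With the replicate block 1 inhibitor gene, Sfrp1, was lower and 1, Apcdd1, was higher (probe set 1418383_at, adjusted p = 0.0234). Sfrp2 and Sfrp4 then had adjusted p of 0.0893 and 0.0901. The block gave 1062 higher and 842 lower probe sets over the array.

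Over the 212 refits of single inhibitor probe sets, 175 kept direction and side of the threshold, 26 lost the call, 7 gained it and 4 changed sign. The sign changes were those of Sfrp5 probe set 1436075_at (-0.32 to 0.11 with a sample left out) and Apcdd1 probe set 1443639_at (-0.21 to 0.70), neither of which passed in any fit. Sfrp5 also had opposite signs on its probe sets, with -0.059 on the more variable one. The filter on dim probe sets was not run, since centred values hold no level, and for the same reason nothing can be said on signal over background.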
